A study of Mus musculus with 20 samples.

Results

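Glycolysis and hypoxia response genes were followed in keratinocytes, the main cell type of the epidermis, sorted from the ear and back skin of 20 mice. The set held 32 genes, chosen by symbol from the deposited table of 25719 genes: the glucose transporter Slc2a1, the enzymes from hexokinase to lactate dehydrogenase, the lactate transporters, a pair of regulators of glycolytic flux, and the oxygen sensing system with its targets. All 32 were in the table and all 32 passed the filter on low counts, which 12424 genes passed in all. The study compared mice of 2 genotypes given tamoxifen by 2 routes, with 5 mice in each of the 4 groups. The conditional knockout (cKO, K14-CreERTam x Cyp11b1 L2/L2) carried floxed alleles of Cyp11b1, which encodes the last enzyme of corticosterone synthesis, and a Cre recombinase that is driven by the keratin 14 promoter and activated by tamoxifen. The controls were littermates with the same floxed alleles and no Cre (Cyp11b1 L2/L2, fl_ctrl). All groups received tamoxifen on 5 days, and cells were taken on day 6. Topical mice had their back hair shaved dry and tamoxifen in ethanol put on the ear (20 µl) and back (100 µl), whereas systemic mice were injected intraperitoneally with 100 µl of tamoxifen in oil and ethanol (10 mg/ml). Because the controls lack Cre and the routes differ in vehicle and shaving, genotype is compared together with Cre, and route together with its vehicle. The ages of the mice are not given in the sources used here.

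Glycolysis breaks glucose down to pyruvate in the cytosol. Lactate dehydrogenase turns pyruvate into lactate, which leaves the cell through monocarboxylate transporters. When oxygen is scarce, prolyl hydroxylases of the Egln family no longer mark the transcription factor subunit HIF-1 alpha for destruction, and the factor induces many of these enzymes and transporters. The epidermis has no blood vessels of its own and is known for active glycolysis and lactate production. The Hif1a transcript itself is not a measure of HIF-1 activity, which is set mainly at the protein level.

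Libraries held 11588851 to 50082771 counts. Unless stated otherwise, levels are CPM (counts scaled to the same library total) after TMM scaling, given with the SD of the 5 libraries in a group. The keratinocyte genes Krt5 and Krt14 lay at 17012 CPM or more in every library, while the lists of other cell types summed, in CPM of the library total, to 1.37 to 32 for fibroblasts (6 genes), 4.13 to 35.0 for melanocytes (5), 7.13 to 33.7 for immune cells (8), 0.696 to 6.60 for endothelium (4), 0.723 to 7.25 for erythroid cells (5), 1.64 to 7.68 for skeletal muscle (5) and 166 to 3186 for sebaceous cells (4). Ptprc was at 0 in 10 libraries and Pdgfra in 11, whereas Col1a1 reached 5.90 CPM and Dct 8.66 CPM. Cyp11b1 could not serve as a check of the labels, because its reads were too few: 1, 2, 0, 5 and 1 counts in the topical controls, 0, 1, 0, 6 and 0 in topical cKO, 0, 0, 0, 1 and 1 in the systemic controls, and 0, 0, 4, 0 and 0 in systemic cKO. Measures outside the set that differed between libraries are given beside the results they touch: the percent of counts from mitochondrial genes, the summed level of satellite-like predicted genes, and the summed level of stress genes induced by tissue dissociation.

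The levels of the set spanned the range from housekeeping enzymes to transcripts near the detection limit. Per kilobase of exon, the most abundant members in topical controls were Aldoa (596 CPM per kb), Ldha (533), Pkm (295) and Gapdh (176). Aldolase A splits fructose bisphosphate, pyruvate kinase makes pyruvate, and Gapdh oxidises glyceraldehyde phosphate. Slc2a1, which encodes the glucose transporter GLUT1, stood at 79.3 CPM per kb. The lowest members were Ankrd37 (0.771), Car9 (0.331) and Vegfa (0.221 CPM per kb). Vegfa, the growth factor of blood vessels, averaged 0.948 ± 0.377 CPM in topical controls (n = 5) and had down to 6 counts in a library. Car9, a carbonic anhydrase of the cell surface, averaged 0.763 ± 0.396 CPM and had down to 1 count. Reads of several members cannot be assigned with certainty, since other annotated genes, mostly processed pseudogenes, share stretches of 50 bases with them: 53.9% of such stretches in Pgk1, 36.2% in Pgam1, 26.0% in Eno1, 25.8% in Pkm, 24.7% in Gapdh (with 213 pseudogenes), 21.0% in Ldhb and 16.5% in Bnip3. A second row with the symbol Aldoa never exceeded 15 counts and was not used.

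Isoenzymes were read as shares of the summed CPM per kilobase of the family members in the set. Over all 20 libraries, Hk1, the widespread hexokinase, held 86.3% ± 6.65 (SD) of the hexokinase signal, and Hk2, the inducible form, held 13.7% ± 6.65. The platelet-type phosphofructokinase Pfkp held 54.6% ± 4.63, the liver-type Pfkl 36.9% ± 5.49 and the muscle-type Pfkm 8.49% ± 2.49. Aldoa held 98.5% ± 0.438 of the aldolase signal against 1.49% ± 0.438 for Aldoc. Ldha, whose subunit favours lactate formation, held 95% ± 1.85 and Ldhb 4.98% ± 1.85. Of the lactate transporters, Slc16a1 (MCT1) held 76.7% ± 12.2 and Slc16a3 (MCT4) 23.3% ± 12.2. Of the HIF prolyl hydroxylases in the set, Egln3 held 80.2% ± 8.39 and Egln1 19.8% ± 8.39. Egln2, of the same family, was outside the set and is not in these shares. It averaged 42.6 and 49.3 CPM in topical controls and cKO, and 36.1 and 38.7 CPM in systemic controls and cKO. Egln3 averaged less in the same groups, at 21.5, 30.3, 10.1 and 7.63 CPM, not scaled by exon length. P4ha1 held 82.6% ± 3.41 of the signal of the collagen prolyl hydroxylases. The leading form was the same in all 4 groups for each of these families, on group means. The lead was not the same in every single library: the Slc16a1 share went down to 40.9% in a systemic control, and in a topical cKO library Pfkl, at 49.7%, was above Pfkp, at 45.4%. The Hk2 share was lower on average in both systemic groups: it ranged from 9.62% to 21.8% in topical controls and from 15.4% to 29.4% in topical cKO, against 5.80% to 11.4% in systemic controls and 3.33% to 14.0% in systemic cKO. These ranges overlapped in controls and did not overlap in cKO.

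**Figure D1:**
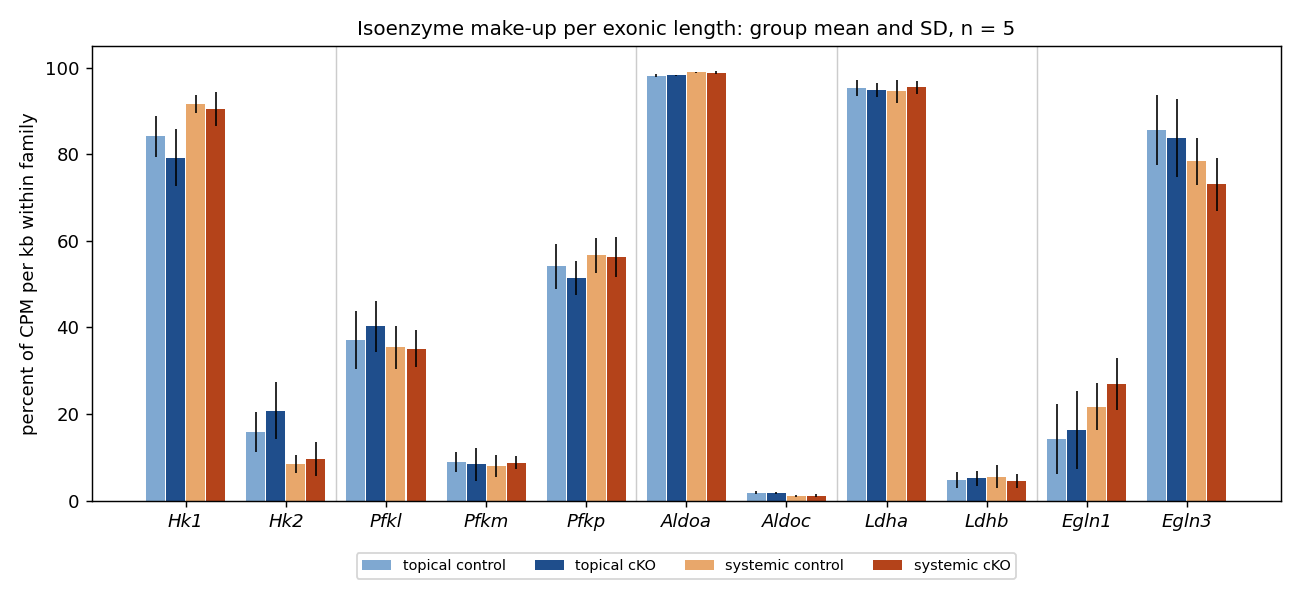
Share of each isoenzyme in its family, in percent of CPM per kilobase of exon, for the 4 groups (bars, mean of 5 libraries; lines, SD). Among the genes in the set, Hk1, Pfkp, Aldoa, Ldha and Egln3 led their families in all 4 groups. Egln2 was not in the set and is not counted. The mean Hk2 share was lower in both systemic groups than in the topical groups.

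HIF binds a short core sequence, so the 250 bases before the annotated starts were searched in RefSeq promoters of GRCm38.p6, a patch release of the build named in the submitters' processing notes. Of the 32 genes, 31 had an entry, with 45 promoters in all, and Ndrg1 had none. The searched cores were ACGTG and GCGTG, on both strands, where they read CACGT and CACGC. Where the core lies in CACGTG it overlaps the E-box, a site of other factors. ACGTG was present in 51.1% of the members' promoters (20 of 31 genes), against 21.6% of the 12055 promoters of genes tested and 16.6% of all 32851 promoters. Either core was present in 82.2%, against 56.1% and 38.6%. These are matches of letters and not measured sites, and many members are textbook HIF targets. The promoter of Pgk1 is shown in full because Pgk1, the phosphoglycerate kinase, is a much-used hypoxia-responsive gene and fell in both route comparisons given further on. It lies at chrX:106186850-106187099 on the + strand and ends at the base before the start, with the cores in capitals:
Pgk1 promoter: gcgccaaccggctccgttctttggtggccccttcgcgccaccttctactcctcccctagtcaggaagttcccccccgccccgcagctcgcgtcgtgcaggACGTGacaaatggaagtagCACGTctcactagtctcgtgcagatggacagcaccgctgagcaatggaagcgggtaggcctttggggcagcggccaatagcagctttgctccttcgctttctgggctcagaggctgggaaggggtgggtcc
For the 5 members with the lowest route estimates in cKO, windows of 30 bases around a core are shown, 5′ to 3′ on the strand of the gene: Slc16a3 at chr11:120949037-120949066 (+), Car9 at chr4:43506996-43507025 (+), Egln3 at chr12:54204086-54204115 (-), Slc16a1 at chr3:104638452-104638481 (+) and Aldoc at chr11:78323011-78323040 (+).
Slc16a3 window: gtgACGTGcgcgggggACGTGccgcgcgac
Car9 window: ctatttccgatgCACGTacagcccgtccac
Egln3 window: tgtgcatctcagACGTGagatccaggtttt
Slc16a1 window: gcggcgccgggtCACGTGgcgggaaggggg
Aldoc window: ccacctctgaggGCGTGgccttaccctaga
The Slc16a1 window holds the E-box form, the Slc16a3 window holds the core at 2 places, and Aldoc had only the GCGTG form. Gapdh too had only the GCGTG form, and Gpi1, which also fell between routes, had neither core in its promoter. By GENCODE, 14 bases of the Slc16a3 window and all 30 bases of the Car9 and Aldoc windows lie in annotated exons, and the other windows lie in none.

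The first question was whether loss of Cyp11b1 in keratinocytes changed these genes, and whether it did so differently under local and systemic treatment. No member passed the test (edgeR's quasi-likelihood test, Benjamini-Hochberg adjusted p under 0.05 over the 12424 genes tested) in any genotype comparison. In topical mice 0 of 32 were called, against 0.129% of all genes. In systemic mice 0 of 32 were called, against 1.89% of all genes (1.36% higher and 0.531% lower in cKO). For the interaction, which tests whether the genotype difference differs between routes, 0 of 32 were called, against 0.25%. At an unadjusted p under 0.05, 1 of 32 members was higher in topical cKO (3.26% of all genes), 1 was higher and 1 lower in systemic cKO (8.27% and 7.08%), and 2 were lower for the interaction (6.81%). The DESeq2 Wald test called 0, 0 and 1 members in these comparisons, against 0.338%, 4.5% and 2.58% of all genes, the 1 being Car9.

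The direction of the small differences was shared by most members within a route. In topical mice, 27 of 32 members had a positive log2 fold change of cKO over control, with a median of 0.12, beside 0.02 over all genes. In systemic mice, 26 of 32 were negative, with a median of -0.25, beside -0.0045 over all genes. Members were high or low together in single libraries, as given at the end, so the 32 signs are not independent.

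Car9 had the largest genotype difference of the set. It ranged over 0.303 to 1.37 CPM in topical controls, 0.715 to 2.27 in topical cKO, 0.286 to 1.72 in systemic controls and 0.0632 to 0.813 in systemic cKO. The groups overlapped within both routes. Its log2 fold change was 0.82 (SE 0.51) in topical mice and -1.61 (SE 0.55, adjusted p = 0.143, edgeR) in systemic mice. The interaction was -2.42 (SE 0.75, adjusted p = 0.137). At 1 to 19 counts at the low end of each group, this gene was measured with little depth. Pfkfb3, whose product makes the activator of phosphofructokinase, was the only member with an unadjusted p under 0.05 for a higher level in systemic cKO, at 0.90 (SE 0.40, adjusted p = 0.274). Egln1, the main oxygen sensor of the HIF pathway, was the one in topical mice, at 0.65 (SE 0.29, adjusted p = 0.827).

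The intervals bound what could have been missed. For Ldha, the 95% interval of the log2 fold change ran from -0.62 to 0.79 in topical and from -0.85 to 0.56 in systemic mice. For Slc2a1 it ran from -0.32 to 0.99 and from -1.08 to 0.24. For Hk2 it ran from -0.27 to 0.95 and from -0.46 to 0.78. Differences of up to about these sizes are therefore compatible with the data. Gapdh, a common reference gene, differed between genotypes by 0.01 (-0.59 to 0.61) and 0.21 (-0.39 to 0.81). Hif1a differed by 0.12 (-0.36 to 0.61) and -0.41 (-0.90 to 0.08). The narrowest intervals belonged to genes with little spread between mice, such as Pfkm, with -0.29 to 0.25 and -0.45 to 0.08. The widest belonged to Car9 and Slc16a3.

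**Figure D2:**
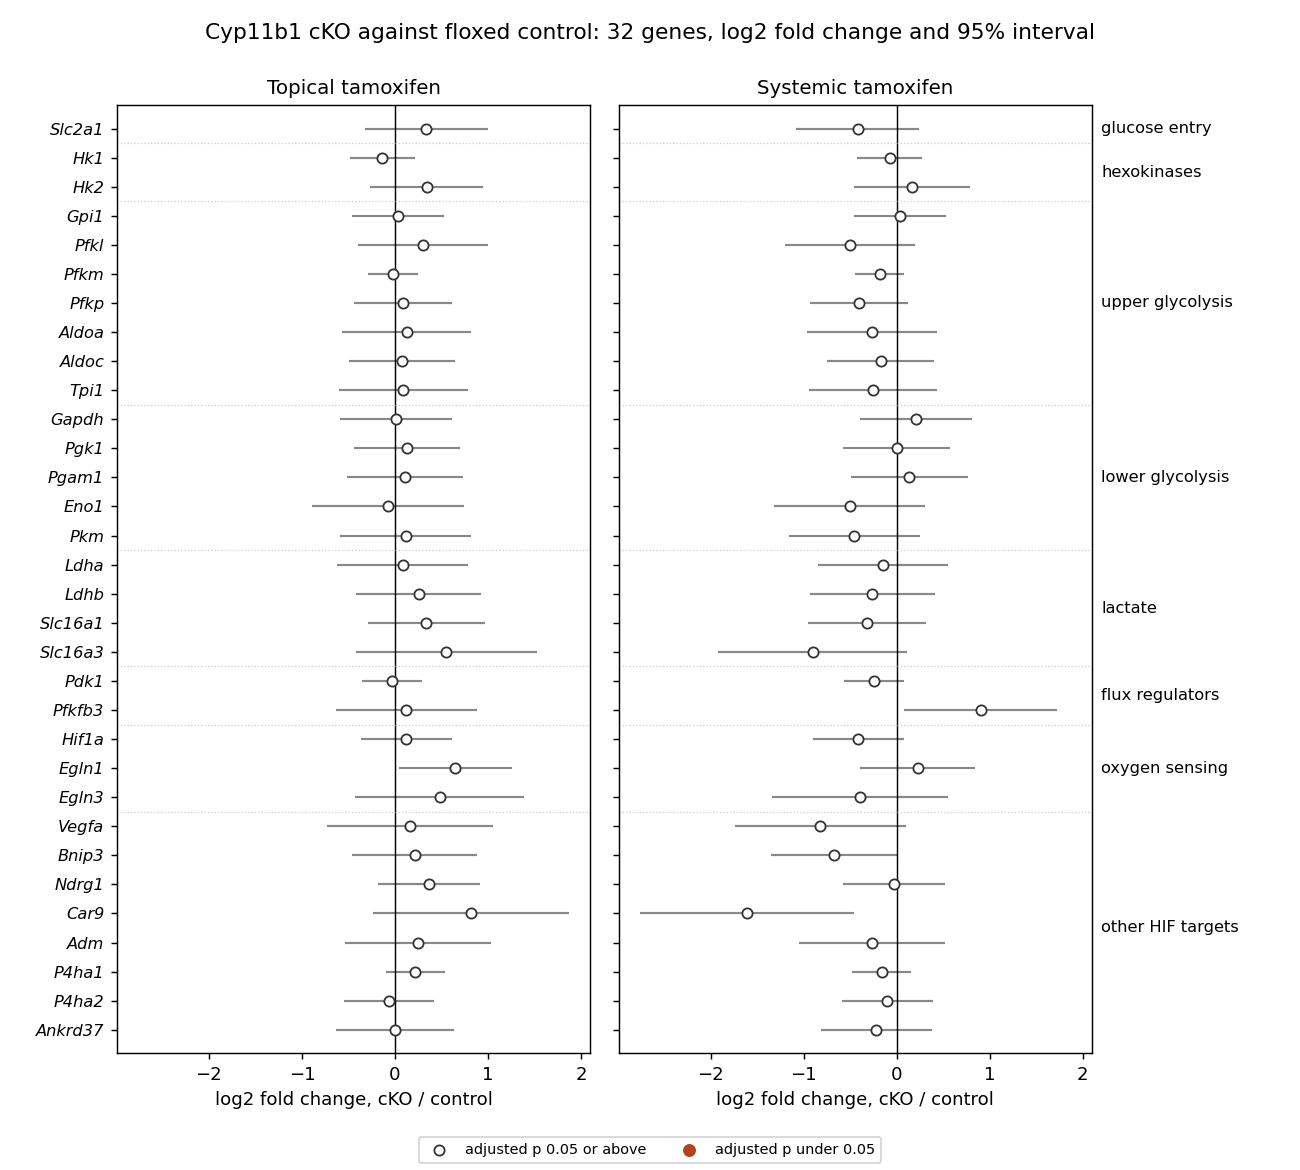
Log2 fold change of cKO over floxed control for the 32 genes, in topical (left) and systemic (right) mice (points, estimates; lines, 95% intervals; dotted lines separate roles). No point passed an adjusted p of 0.05, and most points lay right of 0 in topical and left of 0 in systemic mice.

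Between routes the picture was different: several glycolytic enzymes were lower in systemic than in topical mice of both genotypes. In controls, 6 of 32 members were called, a share close to the 18.3% of all genes. Of the 6 members, 5 were lower, which is 15.6% of the set against 8.16% of all genes called lower. The other 1 was higher (10.2% of all genes). In cKO, 8 of 32 were called, against 9.22% of all genes, and all 8 were lower, against 4.02% called lower. At an unadjusted p under 0.05, 8 members were lower and 2 higher in controls, against 15.2% and 17.7% of all genes, and 23 were lower and 1 higher in cKO, against 11.3% and 11.7%. The median log2 fold change of the set was -0.27 in controls and -0.72 in cKO, beside 0.0008 and -0.013 over all genes. Per-library values are given in the order of the library numbers, which are 1, 3, 5, 6 and 7 for topical controls, 2, 3, 4, 5 and 7 for topical cKO, 1, 3, 4, 5 and 6 for systemic controls and 2, 4, 5, 6 and 7 for systemic cKO. In this bulk measurement, fewer cells expressing a gene and less RNA per cell cannot be told apart.

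Lower glycolysis had Gapdh and Pgk1 called in both genotypes. Gapdh (ENSMUSG00000057666, chr6:125161715-125166467, - strand) had 643, 944, 587, 556 and 909 CPM in topical controls and 508, 193, 301, 293 and 182 CPM in systemic controls. Every systemic control lay below every topical control. The means were 728 ± 184 and 295 ± 131 CPM (n = 5 each), a difference of -1.30 on the log2 scale (SE 0.30, 2.46-fold lower, adjusted p = 0.00454, edgeR). The cKO libraries had 809, 451, 844, 543 and 1022 CPM in topical and 275, 484, 414, 274 and 262 CPM in systemic mice. Here the highest systemic library was above the lowest topical one, so the groups overlapped. On the log2 scale the difference was -1.10 (SE 0.29, 2.15-fold lower, adjusted p = 0.0198). The Gapdh call in cKO was lost without topical cKO 7, systemic cKO 6 or systemic cKO 7 (adjusted p = 0.0577, 0.0569 and 0.0542).

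Pgk1 (ENSMUSG00000062070, chrX:106187100-106203699, + strand), the gene of the promoter printed above, makes the first ATP of glycolysis. It had 57.6, 96.3, 61.6, 57.2 and 74.8 CPM in topical controls and 56.7, 20.7, 31.9, 31.7 and 22.7 CPM in systemic controls. The groups came close to each other but did not overlap. The estimated log2 difference was -1.09 (SE 0.28, 2.13-fold lower, adjusted p = 0.00985, edgeR). Among cKO mice it had 66.8, 51.4, 70.5, 50.7 and 142 CPM in topical and 29.1, 40.1, 34.4, 33.3 and 26.4 CPM in systemic mice, again without overlap. Topical cKO 7 stood far above its group. This gave a log2 fold change of -1.22 (SE 0.28, 2.33-fold lower, adjusted p = 0.00715) and -0.87 without topical cKO 7 (adjusted p = 0.0266). The other lower-glycolysis members did not pass. Pgam1, the phosphoglycerate mutase, was at -0.72 in controls and -0.69 in cKO (adjusted p = 0.1 and 0.167). Eno1, the main enolase, was at -0.17 and -0.60 (adjusted p = 0.795 and 0.381). Pkm was at -0.30 and -0.87 (adjusted p = 0.576 and 0.124).

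In upper glycolysis, Aldoc and Gpi1 were called in both genotypes. Aldoc (ENSMUSG00000017390, chr11:78322968-78327781, + strand), the minor aldolase here, had 43.8, 46.2, 28.5, 25.7 and 39.3 CPM in topical controls and 23.6, 9.80, 19.1, 18.5 and 11.8 CPM in systemic controls. In cKO it had 33.2, 26.7, 49.8, 23.7 and 60.4 CPM in topical and 7.75, 17.9, 18, 14.2 and 14.9 CPM in systemic mice. Neither pair of groups overlapped. The systemic-to-topical log2 ratio was -1.15 (SE 0.28, 2.23-fold lower, adjusted p = 0.00701, edgeR) in controls and -1.40 (SE 0.28, 2.64-fold lower, adjusted p = 0.00272) in cKO. Aldoc remained called without each of the 10 compared libraries in turn, in both genotypes. Its share of the aldolase signal was 1.86% ± 0.274 and 1.81% ± 0.211 in topical controls and cKO, against 1.12% ± 0.202 and 1.16% ± 0.381 in the systemic groups.

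Gpi1 (ENSMUSG00000036427, chr7:34201330-34230336, - strand), which converts glucose 6-phosphate to fructose 6-phosphate, had 238, 279, 196, 194 and 286 CPM in topical controls and 219, 96.8, 148, 136 and 96.4 CPM in systemic controls. Systemic control 1 lay within the topical range. Its log2 fold change was -0.78 (SE 0.24, 1.72-fold lower, adjusted p = 0.0275, edgeR) in controls and -0.78 (SE 0.24, adjusted p = 0.0444) in cKO. These calls depended on single libraries. In controls it was lost without topical control 3 or 7 or systemic control 3 or 6 (adjusted p = 0.0659, 0.0695, 0.0826 and 0.0741). In cKO it held in only 3 of 10 fits, without topical cKO 3 or 5 or systemic cKO 4, and was lost in the other fits, up to an adjusted p of 0.132 without topical cKO 7. The abundant Aldoa was at -0.31 in controls and -0.70 in cKO (adjusted p = 0.549 and 0.215). Tpi1, the triose phosphate isomerase, was at -0.54 and -0.89 (adjusted p = 0.268 and 0.105). The phosphofructokinases lay between -0.06 (Pfkm) and 0.22 (Pfkp) in controls and between -0.69 (Pfkl) and -0.22 (Pfkm) in cKO, none called.

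Glucose entry and the hexokinases had no called member. Slc2a1 had 265, 372, 220.3, 208 and 324 CPM in topical controls and 468, 191, 403, 285 and 116 CPM in systemic controls. The cKO libraries had 365, 219.6, 471, 253 and 448 CPM in topical and 313, 213, 153, 251 and 165 CPM in systemic mice. The groups overlapped in both genotypes. Its log2 fold change was 0.07 (SE 0.32) in controls and -0.68 (SE 0.32) in cKO (adjusted p = 0.898 and 0.201, edgeR). Hk2 had 11.8, 21.0, 16.7, 21.1 and 14.2 CPM in topical controls and 18, 10.2, 9.15, 10.2 and 8.94 CPM in systemic controls. Among cKO mice it had 17.4, 25.7, 17.8, 27.7 and 18.2 CPM in topical and 13.2, 3.76, 11.2, 17.7 and 17.7 CPM in systemic mice. Systemic levels were mostly lower, with overlap in both genotypes. The log2 fold change of Hk2 was -0.59 (SE 0.30) and -0.77 (SE 0.30; adjusted p = 0.175 and 0.116). Hk1 went the other way, at 0.43 and 0.49 (adjusted p = 0.0777 and 0.0724). In cKO the Hk1 groups did not overlap, with 95.2 to 139 CPM in topical and 139.7 to 203 CPM in systemic mice.

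**Figure D3:**
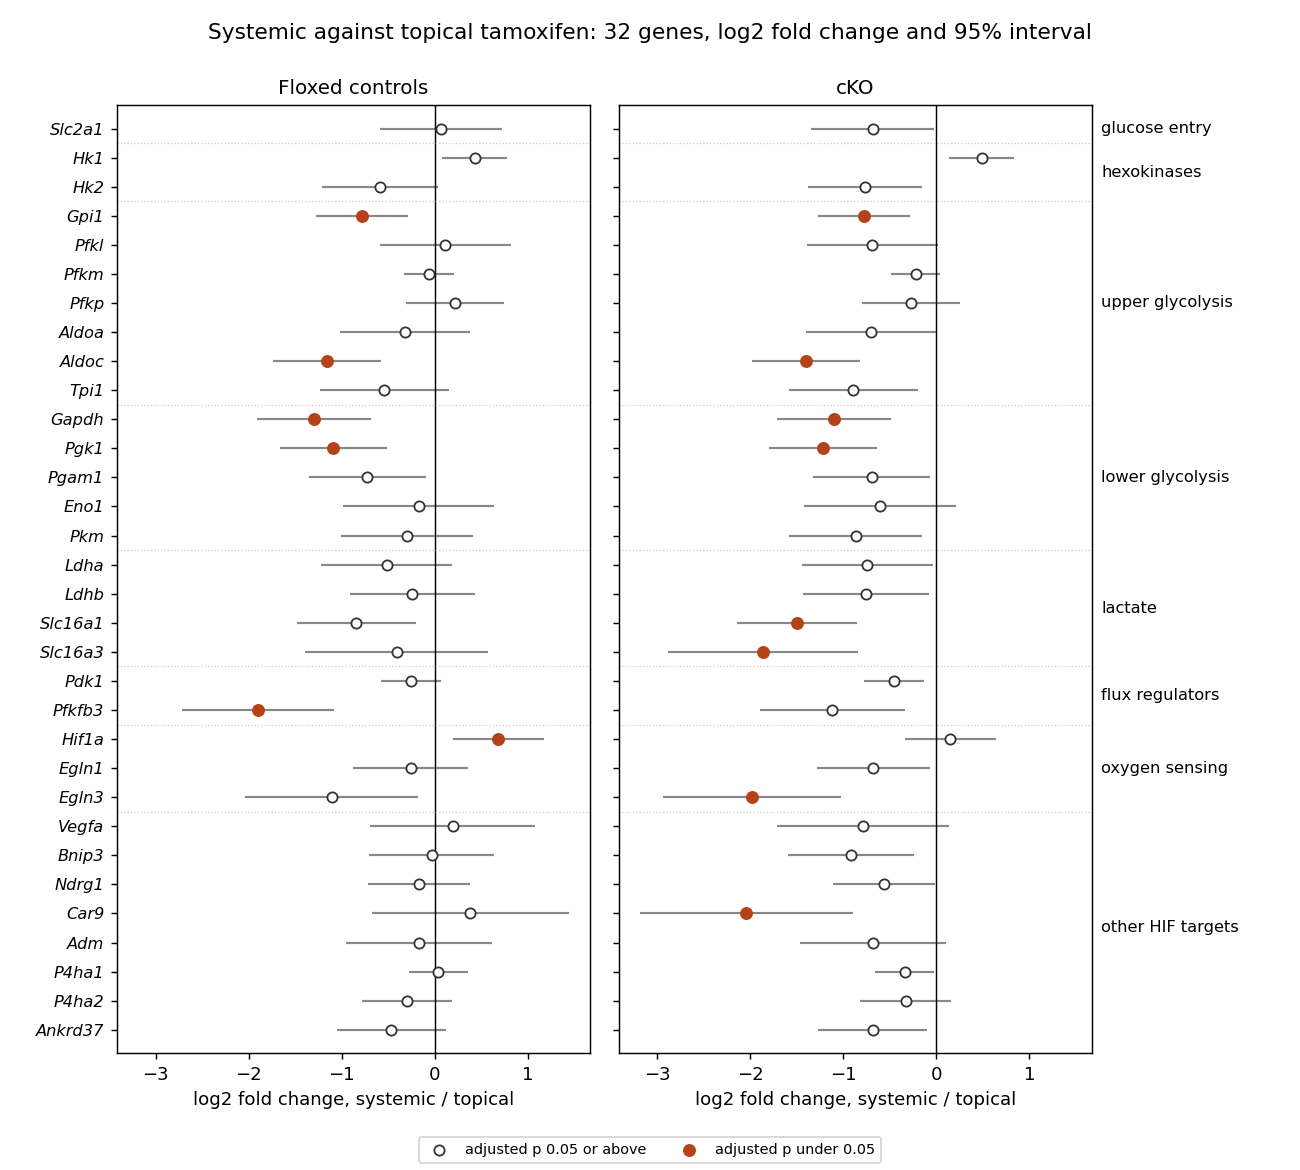
Log2 fold change of systemic over topical tamoxifen for the 32 genes, in controls (left) and cKO (right) (points, estimates; lines, 95% intervals; filled points, adjusted p under 0.05). In controls 5 filled points lay left of 0 and 1, Hif1a, lay right of it. In cKO all 8 filled points lay left of 0.

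At the lactate step, the transporters were lower in systemic cKO. Slc16a1 (ENSMUSG00000032902, chr3:104638668-104658462, + strand), which encodes MCT1, had 51.6, 26.9, 40.6, 63.6 and 39.3 CPM in topical cKO and 10.4, 25.3, 11.2, 17.3 and 14.3 CPM in systemic cKO. The groups did not overlap. On the log2 scale the difference was -1.5 (SE 0.31, 2.82-fold lower, adjusted p = 0.00353, edgeR), and it stayed called without each of the 10 libraries. In controls it had 30.2, 33.3, 53.7, 30.3 and 28.9 CPM in topical and 34.5, 11.6, 9.61, 20.2 and 22.5 CPM in systemic mice. Systemic control 1 lay within the topical range, and the log2 fold change of -0.84 (SE 0.31) missed the threshold (adjusted p = 0.0599).

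Slc16a3 (ENSMUSG00000025161, chr11:120948480-120960868, + strand), which encodes the lactate exporter MCT4, had 11.4, 13.0, 17.3, 7.66 and 34.8 CPM in topical cKO and 4.58, 3.67, 3.65, 4.49 and 6.69 CPM in systemic cKO. The lowest topical library was above the highest systemic one. The estimated log2 difference was -1.86 (SE 0.49, 3.63-fold lower, adjusted p = 0.0196, edgeR). This call was lost without topical cKO 7 or systemic cKO 4 or 5 (adjusted p = 0.0619, 0.0506 and 0.0549). In controls it had 8.68, 22.2, 5.19, 7.57 and 12.7 CPM in topical and 14.6, 3.45, 16.7, 4.07 and 4.40 CPM in systemic mice. Systemic controls 1 and 4 were above all topical controls but number 3, and the log2 fold change was -0.41 (SE 0.47, adjusted p = 0.581). The difference of the route effect between genotypes, which is the interaction, was -1.45 for Slc16a3 (adjusted p = 0.338) and -0.65 for Slc16a1 (adjusted p = 0.518), so neither was shown to depend on genotype.

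Ldha had 1419, 2584, 1366, 1377 and 2067 CPM in topical controls and 2046, 682, 1407, 1344 and 705 CPM in systemic controls. In cKO it had 1962, 1086, 2117, 1102 and 3075 CPM in topical and 1015, 1627, 1306, 788 and 851 CPM in systemic mice. The groups overlapped in both genotypes. Its log2 fold change was -0.51 (SE 0.34) and -0.74 (SE 0.34; adjusted p = 0.307 and 0.193, edgeR). Ldhb, whose subunit favours the reverse reaction, was at -0.24 and -0.76 (adjusted p = 0.639 and 0.159).

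Of the flux regulators, Pfkfb3 (ENSMUSG00000026773, chr2:11471433-11554077, - strand) had the largest route difference of the set in controls. It had 6.41, 13.1, 4.64, 7.07 and 8.98 CPM in topical controls and 3.96, 1.35, 2.57, 2.14 and 1.09 CPM in systemic controls. The groups did not overlap. This gave a log2 fold change of -1.90 (SE 0.39, 3.73-fold lower, adjusted p = 0.00257, edgeR), and it was called without each of the 10 libraries. The cKO libraries had 7.29, 9.34, 8.0, 6.89 and 12.8 CPM in topical and 2.55, 2.10, 2.32, 8.35 and 5.25 CPM in systemic mice. Systemic cKO 6 lay within the topical range, and the log2 fold change of -1.12 (SE 0.37) missed the threshold (adjusted p = 0.0648). The interaction was 0.78 (adjusted p = 0.537). Pdk1, the kinase that holds pyruvate back from the mitochondrion, was at -0.26 in controls and -0.46 in cKO (adjusted p = 0.261 and 0.0686).

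Among the oxygen sensing genes, Hif1a and Egln3 stood on opposite sides. Hif1a (ENSMUSG00000021109, chr12:73901375-73947530, + strand) had 119.7, 135, 159, 119.7 and 147 CPM in topical controls and 224, 211, 327, 210.0 and 121 CPM in systemic controls. Systemic control 6 lay within the topical range and the other systemic controls lay above it. The systemic-to-topical log2 ratio was 0.68 (SE 0.24, 1.61-fold higher, adjusted p = 0.0466, edgeR). This call rested on the exact setting: it was lost without any 1 of 9 of the 10 libraries, up to an adjusted p of 0.157 without systemic control 4, and it was lost with another scaling (RLE size factors, adjusted p = 0.0508). In cKO, Hif1a had 140.4, 114, 204, 121 and 162 CPM in topical and 252, 147, 117, 153 and 152 CPM in systemic mice, with overlap, and the estimate was 0.15 (SE 0.23, adjusted p = 0.753).

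Egln3 (ENSMUSG00000035105, chr12:54178981-54203860, - strand), a prolyl hydroxylase that is itself a HIF target, had 19.7, 25.2, 23.1, 11.2 and 72.2 CPM in topical cKO and 7.84, 7.04, 7.34, 8.35 and 7.57 CPM in systemic cKO. The groups did not overlap, and the 5 systemic libraries lay close together. Its log2 fold change was -1.98 (SE 0.46, 3.94-fold lower, adjusted p = 0.00836, edgeR), and -1.37 without topical cKO 7, the highest library (adjusted p = 0.0261). In controls it had 16.3, 38.4, 10.6, 15 and 27.1 CPM in topical and 22.0, 5.87, 9.74, 6.79 and 6.05 CPM in systemic mice. Systemic control 1 was high, the groups overlapped, and the log2 fold change was -1.10 (SE 0.45, adjusted p = 0.089). Without systemic control 1 it was -1.61 and passed (adjusted p = 0.0111). The interaction for Egln3 was -0.88 (adjusted p = 0.558). Egln1 was at -0.26 in controls and -0.68 in cKO (adjusted p = 0.585 and 0.161).

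The other HIF targets were less uniform. Car9 fell in cKO, from 1.42 ± 0.750 to 0.332 ± 0.288 CPM (n = 5 each, log2 fold change -2.04, SE 0.55, adjusted p = 0.0211, edgeR). This call was lost without topical cKO 4 or 7 or systemic cKO 5 or 6 (adjusted p up to 0.0644, without systemic cKO 5). In controls Car9 was at 0.38 (adjusted p = 0.634). Vegfa had 0.353, 1.37, 0.956, 1.14 and 0.924 CPM in topical controls and 1.79, 0.646, 0.856, 1.22 and 0.948 CPM in systemic controls. Among cKO mice it had 0.509, 1.56, 1.08, 1.07 and 1.13 CPM in topical and 0.528, 0.196, 0.422, 0.759 and 1.31 CPM in systemic mice. Vegfa overlapped between routes in both genotypes, with log2 fold changes of 0.19 (SE 0.43) and -0.79 (SE 0.45; adjusted p = 0.783 and 0.302). Bnip3, a mitophagy receptor, was at -0.03 in controls and -0.92 in cKO (adjusted p = 0.0861 in cKO). Ndrg1, which marks differentiating keratinocytes as well as hypoxia, was at -0.17 and -0.56 (adjusted p = 0.208 in cKO). Adm, the vasodilator peptide adrenomedullin, was at -0.17 and -0.68. The collagen prolyl hydroxylases were at 0.04 and -0.34 for P4ha1 and at -0.29 and -0.33 for P4ha2. Ankrd37 was at -0.46 and -0.68.

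**Figure D4:**
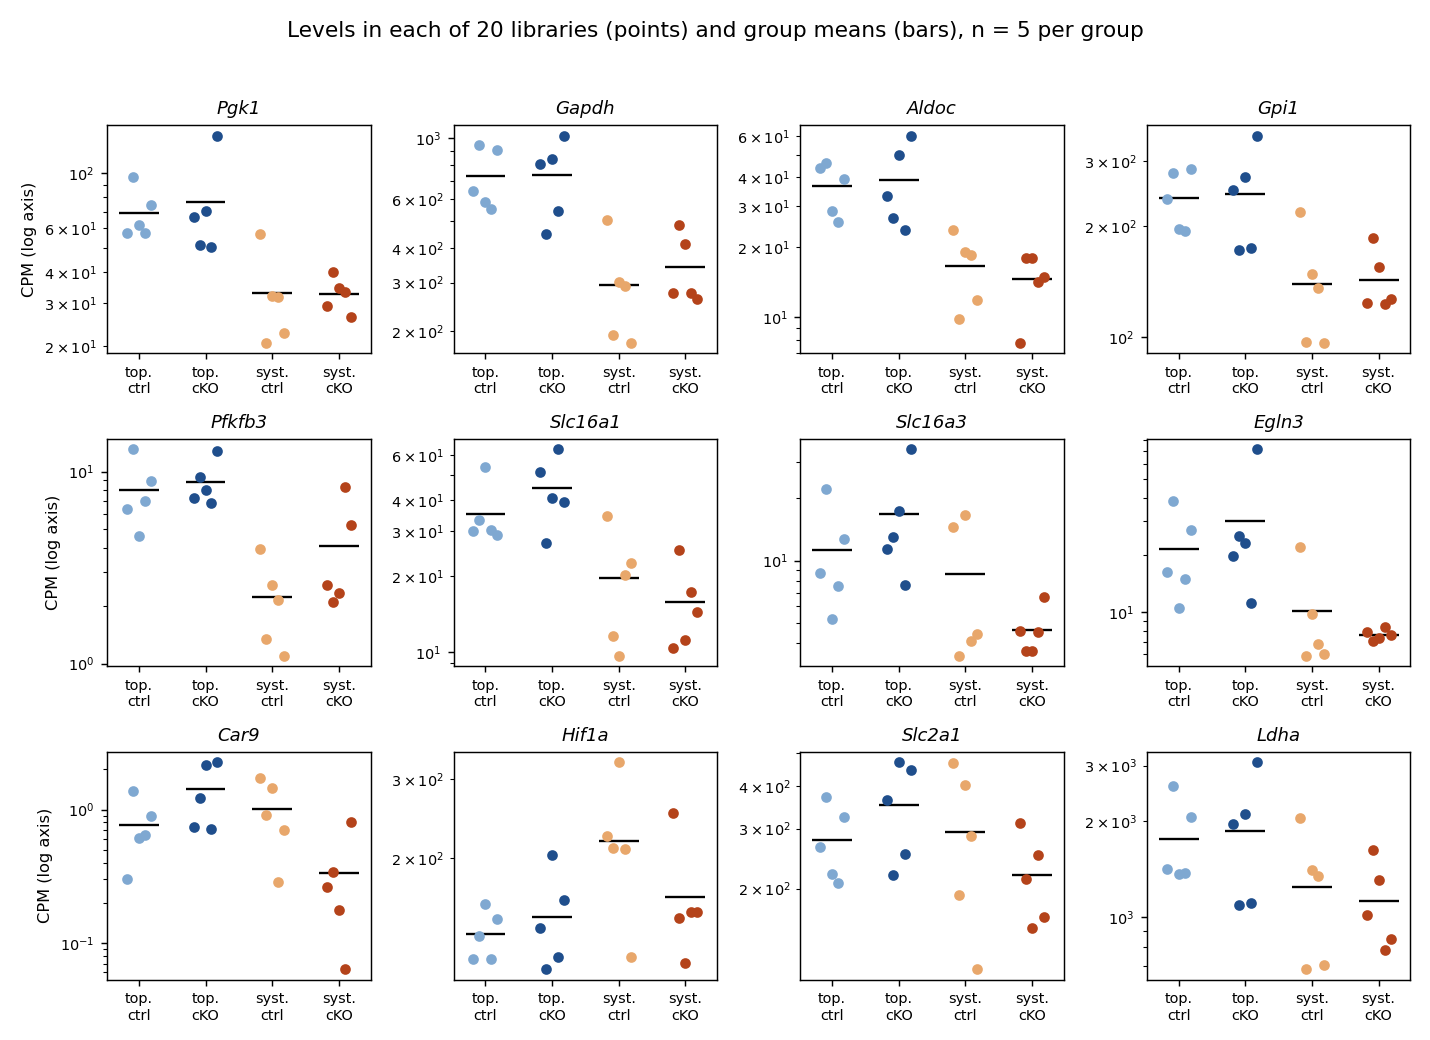
Levels of 12 of the genes in each of the 20 libraries (points, CPM with TMM scaling on a log axis; bars, group means of 5; top., topical; syst., systemic; ctrl, control). Pgk1, Aldoc and Egln3 were lower in systemic than in topical cKO without overlap, whereas Slc2a1 and Ldha overlapped between all groups.

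The route comparisons in controls and in cKO share no libraries and can be set side by side. Of the 32 members, 24 (75%) had a lower level in systemic mice of both genotypes, against 35.4% of all genes tested, and 2 had a higher level in both, Hk1 and Hif1a. Aldoc, Gapdh, Gpi1 and Pgk1 were called lower in both, which is 12.5% of the members against 1.72% of all genes. The groups did not overlap for 4 members in controls, all lower (6.26% of all genes), and for 5 lower and 1 higher member in cKO (3.32% and 4.07% of all genes). By role, all 5 members of lower glycolysis and all 4 of the lactate step had negative estimates in both genotypes, whereas 5 of 8 other HIF targets did so in controls and 8 of 8 in cKO.

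Other measures moved with route or between the libraries compared. The dissociation response list (10 of 10 genes measured, among them Fos, Jun and Hspa1a) summed to 24124 to 33435 CPM of the library total in topical and 37790 to 55380 CPM in systemic libraries, without overlap. Immune marker genes summed to 7.54 to 12.7 CPM in topical cKO and 16.7 to 33.7 CPM in systemic cKO, and erythroid genes to 0.889 to 2.04 and 3.45 to 7.25 CPM, both without overlap. In controls these sums overlapped between routes, at 7.13 to 14.8 and 7.22 to 29.8 CPM (immune) and 0.723 to 3.55 and 1.23 to 6.34 CPM (erythroid). The sebaceous sum overlapped too, at 755 to 2381 CPM in topical and 195 to 1516 CPM in systemic controls and 830 to 3186 and 166 to 2639 CPM in cKO. Basal keratinocyte genes summed to 83675 to 99270 CPM in topical and 72549 to 91472 CPM in systemic cKO. Suprabasal genes summed to 14121 to 24800 and 22228 to 36046 CPM there. In controls the basal sums were 60710 to 95454 and 76617 to 103420 CPM, and the suprabasal sums 25924 to 37934 and 19620 to 42346 CPM. From topical to systemic, the mean basal sum fell and the suprabasal one rose in cKO, with the reverse in controls. The part of these lists in the differences was not tested. Satellite-like predicted genes summed to at most 42.5 CPM in topical libraries, to 79.4 to 11674 CPM in systemic controls, and to 1.1 to 37287 CPM in systemic cKO, where only library 2 was above 50 CPM. With this sum as a covariate on the log2 scale, 0 members were called between routes in controls (edgeR), against 0.95% of all genes, and 9 in cKO, against 10.5%. At an unadjusted p under 0.05 the count in controls was 5, against 13% of all genes. The 6 members called in controls were then at -1.27 (Pfkfb3), -0.84 (Gapdh), -0.73 (Pgk1), -0.46 (Aldoc), -0.41 (Gpi1) and 0.39 (Hif1a) on the log2 scale, with adjusted p from 0.251 to 0.635. With the sum as over 50 CPM instead, an adjustment that rests on systemic cKO 2, Aldoc was at -0.085. In controls the measure cannot be told apart from route, since all 5 systemic and no topical controls were above 50 CPM. The percent of mitochondrial counts overlapped between routes (2.67% to 7.49% topical, 1.87% to 6.42% systemic), and with it as a covariate 11 members were called in controls, against 28.1% of all genes, and 16 in cKO, against 13.8%. The labels name no batch, so a batch that follows route cannot be told apart from it.

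Further genes of the same pathways were taken from a list of 75. Of the 39 glycolysis and pyruvate genes, 30 were tested, and of the 36 hypoxia genes, 35 were in the table and 30 were tested. In topical mice, 1 glycolysis gene was higher in cKO and none lower, beside 0.129% of all genes called. This was Gapdhs, the glyceraldehyde phosphate dehydrogenase known from sperm, with 1.63 ± 0.162 CPM in controls (1.48 to 1.84) and 4.45 ± 1.78 CPM in cKO (2.83 to 7.49), and a difference of 1.42 on the log2 scale (adjusted p = 0.00446, edgeR). In systemic mice it had 1.70 ± 0.308 CPM in controls and 2.01 ± 0.301 CPM in cKO (adjusted p = 0.732), and the interaction was -1.21 (adjusted p = 0.0884). No other gene of the list was called in a genotype comparison or for the interaction. Between routes in controls, 2 glycolysis genes were higher and 1 lower, and 1 hypoxia gene was higher and 5 lower. That is 3 of 30 and 6 of 30, beside 18.3% of all genes. The 5 with the smallest adjusted p were Hmox1, the heme oxygenase (-1.05), Tfrc, the transferrin receptor (-0.76), Jmjd6 (0.50), the adenylate kinase Ak4 (-0.59) and Pdhb of the pyruvate dehydrogenase (0.45; adjusted p from 0.00429 to 0.017). In cKO, 1 glycolysis gene was higher and 2 lower, and 2 hypoxia genes were higher and 3 lower, which is 3 of 30 and 5 of 30, beside 9.22% of all genes. The 5 with the smallest adjusted p were Gapdhs (-1.14), the phosphoglucomutase Pgm1 (-0.95), the glucose transporter Slc2a12 (0.86), the carbonic anhydrase Car12 (-1.23) and Hmox1 (-1.0; adjusted p from 0.00218 to 0.00769). The median log2 fold change of the tested list genes was 0.12 (glycolysis) and 0.02 (hypoxia) in controls and -0.20 and -0.10 in cKO, nearer to 0 than that of the 32 members in cKO.

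Within groups, the glycolytic enzymes varied widely from mouse to mouse. The 16 enzymes from hexokinase to lactate dehydrogenase took between 0.403% and 0.977% of all counts in a library. The sum was 7598 ± 915 CPM of the library total in topical controls, 7775 ± 1444 in topical cKO, 5636 ± 1725 in systemic controls and 4663 ± 689 in systemic cKO (mean ± SD, n = 5). In cKO the lowest topical library (6163 CPM) lay above the highest systemic one (5764 CPM). In controls systemic control 1, at 8530 CPM, lay within the topical range. With TMM scaling, as used for the single genes, these sums overlapped between routes in both genotypes. They ran from 4996 to 12360 CPM in topical cKO and from 3694 to 7056.5 CPM in systemic cKO. In controls they ran from 5757 to 10485 CPM in topical and from 3199 to 10174 CPM in systemic mice. The within-group SD of log2 CPM, taken after adding 1 CPM to every level, had a median of 0.49 over the members and 0.28 over all genes tested. Among genes of at least 100 CPM on average it was 0.51 (13 members) and 0.40 (949 genes). On this scale Slc16a3 (0.73), Egln3 (0.69), Eno1 (0.68) and Adm (0.68) varied most, and Pfkm (0.16) and Ankrd37 (0.19) least. The added 1 CPM narrows the spread of genes near that level, such as Ankrd37, Vegfa and Car9. Car9 was at 0.38 on this scale, although it ran from 0.0632 to 0.813 CPM within systemic cKO.

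Single libraries were high or low for most members at once. Systemic control 1 was above the mean of its group for 31 of 32 members and for 16 of 16 enzymes, and topical cKO 7 for 29 members and 15 enzymes. Systemic control 3 was above its group mean for 2 of 32 members and systemic control 6 for 4. The percent of mitochondrial counts showed a gap: 10 libraries had 1.87% to 3.68% and the other 10 had 5.24% to 7.49%. The lower side held 3 topical controls, 3 topical cKO, 3 systemic controls and 1 systemic cKO. In the libraries of the lower side, the median deviation of the 16 enzymes from their group mean ran from -0.02 to 0.86 on the log2 scale, and in those of the upper side from -0.57 to 0.13. In fits split at this gap, which was chosen after seeing the data, 4 members (Aldoc, Gapdh, Pfkfb3 and Hif1a) were called between routes in controls of the lower side, against 10.7% of all genes. On the upper side, 9 were called in controls, Aldoc, Gapdh and Pfkfb3 among them (8.03% of all genes), and 3 in cKO (Pgk1, Slc16a1 and Egln3, 3.55% of all genes). The lower side held a single systemic cKO library, so its cKO comparisons are not read here. What sets the mitochondrial percent was not tested.

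**Figure D5:**
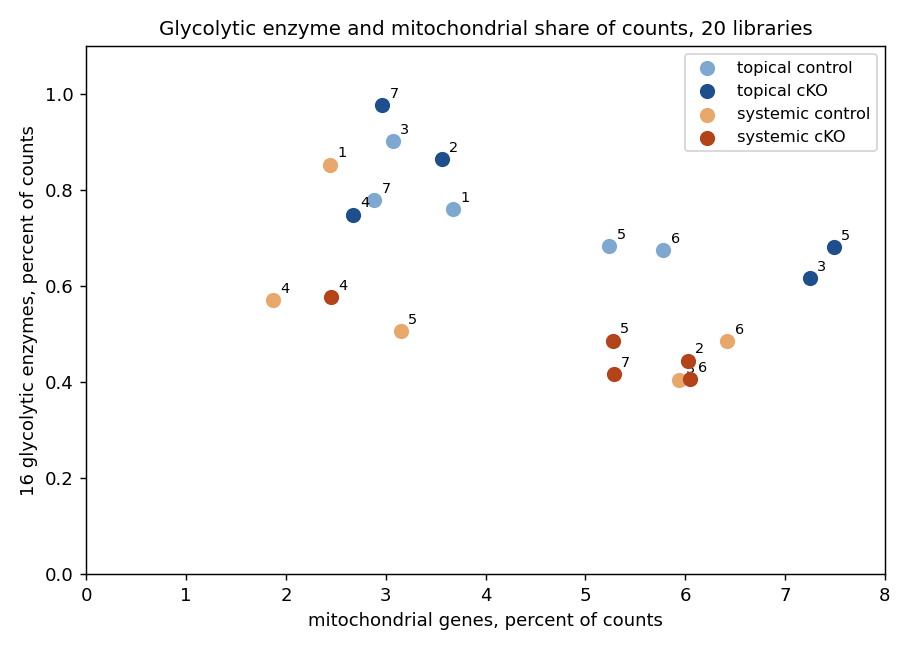
Percent of counts from the 16 glycolytic enzymes against percent of counts from mitochondrial genes, per library (colours, groups; digits, library numbers). The systemic libraries lay lower than the topical ones on both sides of the gap between 3.68% and 5.24% mitochondrial counts, except systemic control 1 at 0.853%.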

How the data were processed

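Expression was measured by RNA-seq of sorted keratinocytes in 20 libraries. The authors deposited read counts per gene as whole numbers, not normalized. Per the submitters' processing notes, STAR, featureCounts and the GRCm38/mm10 build were used, while the annotation version and strand setting are not given in the sources used here. Library totals were 11588851 to 50082771 counts, and counting intervals would cover counting error only. The 32 members and the lists were chosen with earlier results of these data known. Genes passing filterByExpr (minimum count 10, minimum total 15) numbered 12424. One edgeR quasi-likelihood fit (edgeR 4.0.16, TMM, robust) over all 20 libraries gave 5 contrasts, with Benjamini-Hochberg adjustment over all genes and a threshold of 0.05. Single-gene CPM were TMM-scaled, and summed levels used the library total unless stated otherwise. The 5 libraries of a group come from 5 mice per the series' design text, and no 2 libraries held identical counts. Full values were given for up to 6 called members per contrast with the smallest adjusted p and for Hif1a, Slc2a1, Hk2, Ldha, Gapdh, Vegfa and Egln3, and for further pathway genes up to 5 called ones per contrast. Leaving out libraries, covariates, scalings, filters and the DESeq2 Wald test (DESeq2 1.42.0) were tried as alternatives. The fit was also run on simulated data, and the outcome is not reported here. Promoters came from RefSeq (GRCm38.p6). Coordinates and exon lengths are those of GENCODE for GRCm38.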

Additional observations from a re-analysis of the deposited data

Results flagged for a closer look

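In 10 of the 128 groups of 5 libraries examined (32 genes in 4 groups), 1 library stood apart from the others by Dixon's criterion, which chance alone meets in about 1 of 20 groups. Several of these were in the libraries described above as high for most members. In systemic control 1, Hk2 was at 18 CPM (next 10.2), Egln3 at 22.0 CPM (next 9.74) and Ankrd37 at 1.28 CPM (next 0.826). In topical cKO 7, Pgk1 was at 142 CPM (next 70.5) and Egln3 at 72.2 CPM (next 25.2). In systemic cKO 4, the deepest library, Ldhb was at 51.4 CPM (next 24.6) and Pdk1 at 53.4 CPM (next 36.2). Hif1a was at 252 CPM in systemic cKO 2 (next 153), the only systemic cKO library with satellite-like genes above 50 CPM. Slc16a1 was at 53.7 CPM in topical control 5 (next 33.3). Pfkl was lowest in systemic cKO 6, at 51.7 CPM, where the next library had 72.7 CPM.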

How the results depend on the processing

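The number of members called was 0 in both genotype comparisons and for the interaction under several settings. These were RLE size factors, no filter on low counts, a mean of at least 5 CPM, and leaving out any 1 library. Sex, satellite-like genes or mitochondrial percent as a covariate also gave 0. Sex was inferred from the summed level of 4 Y-linked genes (above 5 CPM). With satellite-like genes, on the log2 scale or as over 50 CPM, 0 of 12424 genes were called between genotypes in systemic mice and for the interaction. Those zeros therefore tell nothing about the members. DESeq2 called 1 for the interaction, Car9. Among libraries under 4.5% mitochondrial counts, a split chosen after seeing the data, 2 were called between genotypes in systemic mice, 1 for the interaction and 3 between routes in cKO. Systemic cKO 4 was the only systemic cKO library there and was assumed to vary like the others, so these calls set that library against the others and compare neither genotype nor route. Between routes in controls, 0 were called with satellite-like genes as covariate on the log2 scale, beside 118 of 12424 genes. As over 50 CPM this covariate also gave 0, beside 1 of 12424 genes, so almost no gene of any kind was called. With mitochondrial percent, 11 were called (28.1% of all genes). Between routes in cKO, 16 were called with mitochondrial percent (13.8% of all genes) and 3 over 4.5% mitochondrial counts (3.55%). Leaving out 1 library gave 4 to 8 calls in controls and 4 to 9 in cKO, the lowest in cKO without topical cKO 7 (978 of 12599 genes). Without any 1 of the compared libraries, calls over all genes ran from 1463 of 12530 to 2524 of 12563 in controls. In cKO they ran from 746 of 12489 to 1218 of 12569. Without a filter, Hif1a (controls) and Gpi1 and Slc16a3 (cKO) were no longer called. The replicate number as a block gave 0, 0, 0, 6 and 7 calls, beside 9, 288, 0, 2183 and 937 of 12424 genes. The numbers did not pair the samples: correlations of same-numbered deviations ran from -0.38 to 0.40. The cause of these changes was not tested.

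Some differences changed sign, all of them uncalled except that of Hif1a between routes in controls. With the replicate block, Hif1a, Ldha and Gapdh were at -0.16, -0.14 and -0.10 between genotypes in topical mice, Ldha at 0.0062 for the interaction and Slc2a1 at -0.082 between routes in controls. With inferred sex as covariate, Gapdh was at -0.0064 in topical mice. With satellite-like genes over 50 CPM, Hif1a, Slc2a1 and Gapdh were at 0.21, 0.096 and -0.10 between genotypes in systemic mice. Hif1a and Gapdh were at 0.086 and -0.12 for the interaction. Between routes, Hif1a and Slc2a1 were at -0.14 and -0.61 in controls, and Hif1a at -0.056 in cKO. Within groups this covariate differed only in systemic cKO, where library 2 alone was above 50 CPM. All of these values therefore rest on systemic cKO 2. On the log2 scale, Gapdh was at -0.14 and -0.22 for genotype in systemic mice and the interaction. With mitochondrial percent, Hk2 and Ldha were at -0.030 and 0.21 in systemic mice, Ldha at 0.016 for the interaction and Slc2a1 at -0.056 between routes in controls. Leaving out 1 library gave, between genotypes in topical mice, -0.020 to 0.20 for Hif1a, -0.17 to 0.26 for Ldha, -0.14 to 0.14 for Gapdh, -0.051 to 0.36 for Vegfa and -0.13 to 0.79 for Egln3. In systemic mice it gave -0.32 to 0.11 for Ldha and -0.54 to 0.11 for Egln3, and for the interaction -0.33 to 0.069 for Hk2 and -0.41 to 0.029 for Ldha. Between routes it gave -0.16 to 0.28 for Slc2a1 and -0.049 to 0.37 for Vegfa in controls and -0.055 to 0.29 for Hif1a in cKO. Depth limited Car9 and Vegfa, at about 1 CPM.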
